A study of Mus musculus with 6 samples.

Results

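Genes that astrocytes switch on when they become reactive were examined in RNA of the adult mouse optic nerve. The 10 genes were Vim, Lcn2, Serpina3n, Cp, Steap4, S1pr3, Timp1, Cd44, Osmr and Emp1. They were chosen as known markers of the reactive state, with earlier results of these data known. They were taken by gene symbol from the deposited count tables, which held all 10 of them among 24062 gene symbols. Of the 6 libraries, 3 came from control animals and 3 from mutant animals. The mutants carried PlpCreERT2, a tamoxifen-inducible Cre recombinase under the promoter of the myelin gene Plp, together with 2 floxed Nf1 alleles. Control library 1 came from an Nf1flox/flox animal and control libraries 2 and 3 from Nf1flox/+ animals, all without the Cre, so every animal in the series carried at least 1 floxed allele. Per the labels, animals were over 2 months old when tamoxifen was given, and the nerves were taken 1 month later. The question the design puts is which transcripts of the nerve differ once Nf1, the gene of the Ras-inactivating protein neurofibromin, has been targeted in mature oligodendrocytes. Whole nerve was sequenced, so fewer cells of a type and less RNA per cell cannot be told apart. By genotype, control library 1 came from another animal than control libraries 2 and 3. The labels do not say that each library came from an animal of its own. The p-values thus reflect the spread over these 6 libraries, part of which may be technical.

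Reactive astrocytes respond to injury and inflammation by enlarging, by building more intermediate filament and by secreting proteins that act on matrix, proteases and iron. Signals that drive this state include cytokines of the interleukin 6 family, which act through the shared receptor subunit gp130 and the transcription factor STAT3. Many of the same genes are also expressed by fibroblasts, pericytes, endothelial cells and leukocytes, all of which are present in the optic nerve and its sheath.

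Total counts ranged from 13555756 to 23662698 per library. Mutant libraries 1 and 3 stood apart from mutant library 2. Across genes, Pearson's r of log2 CPM (counts per 1000000) with the controls was 0.875 to 0.891 for mutant libraries 1 and 3 and 0.942 to 0.954 for mutant library 2. Counts of Nf1 itself were 7951, 9645 and 8111 for the controls, beside 5627, 2990 and 6201 for the mutants. They are not scaled to library size, so they cannot be compared directly between libraries. Total counts were 21307855, 23662698 and 22872063 for the controls and 19012262, 13948624 and 13555756 for the mutants. The fold change of Nf1 was -0.23 on the log2 scale (± 0.28 SE) and did not pass (adjusted p 0.703 by edgeR). The Nf1 counts include exons outside the floxed part and so do not check the labels. Xist, expressed from the inactive X chromosome of females, had 30602 to 72727 counts in control library 2 and all 3 mutant libraries and 34 and 58 in the other controls, so sex and genotype overlap in part. Control libraries 2 and 3, alike in genotype, had 72727 and 34 Xist counts and so came from different animals. Xist does not separate the mutant libraries in this way. The defining astrocyte markers Aqp4, Slc1a3, Aldh1l1 and Gja1 were detected in every library. Aqp4 had 603, 843.5 and 731 CPM in controls and 331, 825 and 328 CPM in mutants, and Gja1 had 222 to 409 CPM and 143 to 258 CPM. Slc1a3 had 553 to 694 CPM in controls and 528 to 720.2 CPM in mutants, and Aldh1l1 20.9 to 25.4 CPM and 21.6 to 26.5 CPM, so these markers did not move alike.

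Most of the 10 genes were lower in the mutant libraries, but none passed the test with all 6 libraries. By edgeR with Benjamini-Hochberg adjustment over 16315 genes, 0 of the 10 had an adjusted p under 0.05, where 3.29% of all genes tested were called (2.95% higher and 0.337% lower). At an unadjusted p under 0.05 there were 5 of 10, against 19.2% of all genes. The log2 fold change was below 0 in 9 of 10, against 50.1% of all genes, and the median over the 10 was -0.98, against -0.0017 over all genes. Every control exceeded every mutant library in 3 of the 10 (Cp, S1pr3 and Cd44), a pattern seen in 11.5% of all genes, and no member showed the opposite. The DESeq2 Wald test called 3 of the 10 lower (Cd44, Cp and S1pr3), where it called 2.3% of all genes lower. By limma-voom 1 was lower (Cd44), against 0.539% of all genes, and with quality weights 7 were, against 12.4%.

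The number called turned on mutant library 2. In 7 of the 10 genes mutant libraries 1 and 3 held the lowest values of all 6, and in 8 of 10 mutant library 2 was above both. The share of all genes with these orders was not counted, so they are not shown to be particular to the 10. Without mutant library 2, edgeR called 7 of the 10, all lower: Vim, Cp, S1pr3, Cd44, Emp1, Serpina3n and Osmr. In that fit 27% of all genes were called in either direction and 13.8% were lower. DESeq2 without mutant library 2 called 6 of them lower, leaving out Serpina3n (adjusted p 0.0587), where 12.5% of all genes were lower. Over the 10, the summed level was 981, 1142 and 1169 CPM in control libraries 1, 2 and 3 and 241, 876 and 283 CPM in mutant libraries 1, 2 and 3. The coefficient of variation of CPM over 3 libraries was 4.54% to 57.2% in controls and 44.6% to 88.5% in mutants.

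**Figure D1:**
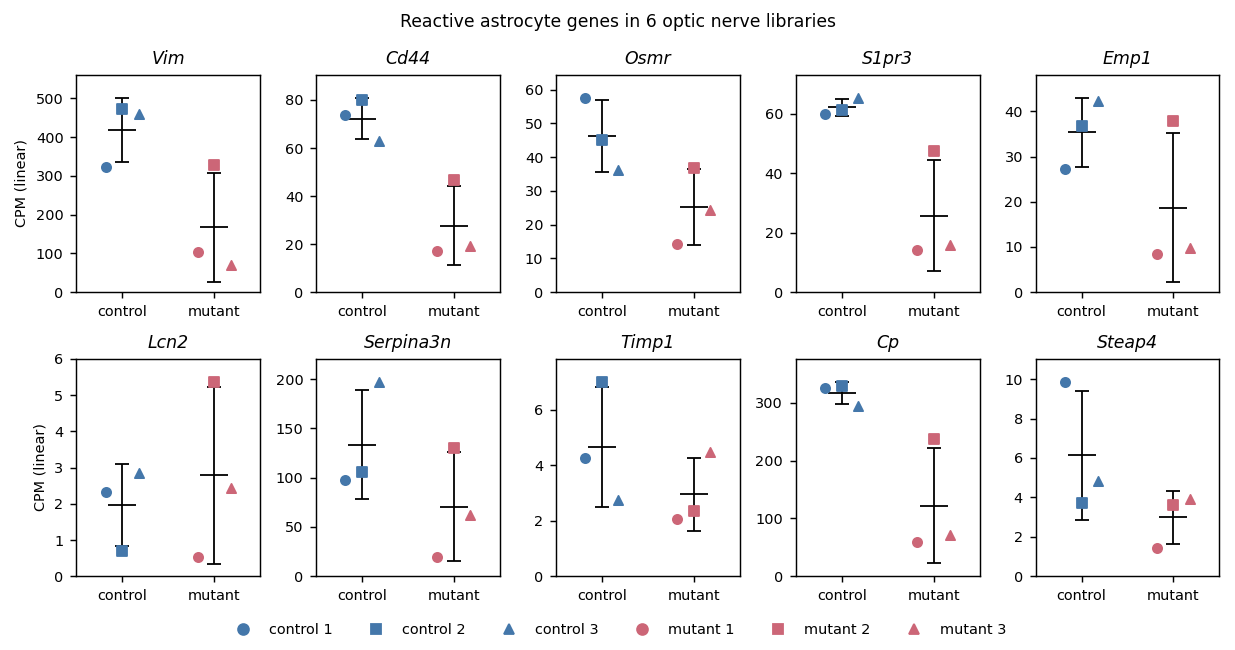
CPM (linear axis from 0, TMM-scaled library sizes) of each of the 10 genes in the 3 control and 3 mutant libraries. Points are libraries, the dash is the group mean and bars are 1 SD. Mutant libraries 1 and 3 are the lowest points in 7 panels, while mutant library 2 lies closer to the controls.

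Among the receptors, Cd44 had the smallest p. Cd44 (chromosome 2, 102811142 to 102901665 on mm10, minus strand, 19 exon blocks) encodes the cell surface receptor for the matrix polysaccharide hyaluronan. Its level was 73.8, 80.0 and 63.0 CPM in control libraries 1, 2 and 3 and 17.1, 46.7 and 19.3 CPM in mutant libraries 1, 2 and 3. All mutants were thus below all controls, with mutant library 2 between the controls and the other mutants. The means were 72.3 ± 8.60 and 27.7 ± 16.5 CPM (SD, n = 3 each). The difference was -1.39 on the log2 scale (± 0.38 SE) and did not pass (adjusted p 0.0923 by edgeR). Without mutant library 2 it was -1.99 (SE 0.23) and Cd44 passed, with an edgeR adjusted p of 0.000181.

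S1pr3 (chromosome 13, 51408618 to 51422797, plus strand, 2 exon blocks) encodes a G protein-coupled receptor for the lipid sphingosine 1-phosphate. It was the steadiest of the 10 in controls, at 59.9, 61.4 and 65.3 CPM, beside 14.0, 47.3 and 15.9 CPM in the mutants. The groups did not overlap, and mutant library 2 stood at 76.1% of the control mean where mutant libraries 1 and 3 stood at 22.6% and 25.6%. Mutants differed from controls by a log2 fold change of -1.27 (± 0.44 SE), with an edgeR adjusted p of 0.162, and -2.05 (edgeR adjusted p 0.000132) without mutant library 2.

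Osmr (chromosome 15, 6813577 to 6874313, minus strand, 18 exon blocks) encodes the subunit that pairs with gp130 to bind oncostatin M. Its level was 57.6, 45.1 and 36.1 CPM in controls and 14.3, 36.9 and 24.4 CPM in mutants. Mutant library 2 lay just above control library 3, so the groups overlapped. This gave a log2 fold change of -0.88 (± 0.36 SE), with an edgeR adjusted p of 0.226, and -1.25 (edgeR adjusted p 0.0120) without mutant library 2. Among the 7 genes called in that fit, Osmr had the smallest change.

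Emp1 (chromosome 6, 135362931 to 135383173, plus strand, 7 exon blocks) encodes a small membrane protein of the family of the peripheral myelin protein PMP22. It had 27.1, 36.7 and 42.2 CPM in controls and 8.47, 37.8 and 9.84 CPM in mutants. Mutant library 2, at 107% of the control mean, lay inside the control range, and the other mutants lay well below it. Its difference was -0.92 on the log2 scale (± 0.54 SE, adjusted p 0.389 by edgeR), and -1.94 (edgeR adjusted p 0.000649) without mutant library 2. Leaving out mutant library 1 gave -0.57 and leaving out mutant library 3 gave -0.62, and Emp1 passed in neither fit.

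The structural gene of the set is Vim (chromosome 2, 13574311 to 13582826, plus strand, 9 exon blocks), which encodes the intermediate filament protein vimentin. Controls had 323, 473 and 460.1 CPM and mutants 104, 329 and 69.8 CPM. Mutant library 2 exceeded control library 1, the Nf1flox/flox control, so the groups overlapped. Its log2 fold change in the mutants was -1.32 (± 0.52 SE, adjusted p 0.219. by edgeR) In mutant libraries 1 and 3 the level was 24.9% and 16.7% of the control mean, and without mutant library 2 the log2 fold change was -2.26 (edgeR adjusted p 0.000178).

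Genes of 3 secreted proteins, Serpina3n, Timp1 and Lcn2, varied among the controls with a coefficient of variation of 41.6%, 46.4% and 57.2%. Serpina3n (chromosome 12, 104406708 to 104414329, plus strand, 5 exon blocks) encodes a serine protease inhibitor. It had 97.3, 106 and 197 CPM in controls and 19.96, 129.7 and 62.2 CPM in mutants. Mutant library 2 exceeded 2 of the 3 controls. The mutants stood at -0.92 on the log2 scale (± 0.58 SE), with an edgeR adjusted p of 0.424, and at -1.69 (edgeR adjusted p 0.0194) without mutant library 2. Serpina3n was at -0.47 without mutant library 1 and at -0.53 without control library 3, and passed in neither fit. Reads can be shared with related genes of the same family. The paralogs Serpina3c, Serpina3g, Serpina3i and Serpina3m had at most 2.04 CPM in any library. How far shared reads alter the value of Serpina3n was not tested.

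Timp1 (chromosome X, 20870166 to 20874737, plus strand, 6 exon blocks) encodes an inhibitor of matrix metalloproteinases. Controls had 86, 169 and 66 counts of it and mutants 38, 31 and 64, or 4.26, 7.01 and 2.74 CPM and 2.05, 2.34 and 4.47 CPM. The groups overlapped, and mutant library 3 was above 2 of the 3 controls. Mutants differed from controls by a log2 fold change of -0.66 (± 0.51 SE), with an edgeR adjusted p of 0.521. Leaving out single libraries moved it between -1.09 (without mutant library 3) and -0.24 (without control library 2, the only control with high Xist), and it passed in no fit. Among the libraries with high Xist it was at -1.25. Timp1 lies inside an intron of Syn1, a synaptic vesicle gene on the opposite strand, and counting ignored strand. Syn1 had 55.8 to 68.4 CPM in controls and 310.0, 86.5 and 222 CPM in mutant libraries 1, 2 and 3, and whether its intronic RNA adds to Timp1 was not tested.

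Lcn2 (chromosome 2, 32384637 to 32387739, minus strand, 6 exon blocks) encodes lipocalin 2, a secreted carrier of iron-bound siderophores. It was the only member with a log2 fold change above 0. The counts were 47, 17 and 69 in controls and 10, 71 and 35 in mutants, which correspond to 2.33, 0.705 and 2.86 CPM and to 0.540, 5.37 and 2.44 CPM. The highest and the lowest library were both mutants. This gave a log2 fold change of 0.49 (± 0.82 SE), with an edgeR adjusted p of 0.788, and its sign was negative without mutant library 2 (-0.40, edgeR adjusted p 0.766) and with quality weights in limma-voom (-0.0034), so no direction can be given. In the other direction, it was 1.97 (± 1.44 SE) among the libraries with high Xist and 1.92 (± 1.26 SE) with Xist as a covariate, and did not pass in either (edgeR adjusted p 0.999 and 0.777). Leaving out control library 2 gave 0.10, control library 3 gave 0.87 and mutant library 1 gave 0.99. Neutrophils also make Lcn2. Their marker S100a8 had 173, 3 and 49 counts in controls and 4, 48 and 11 in mutants, and control library 2 and mutant library 1 were lowest for both genes. The highest library differed, mutant library 2 for Lcn2 and control library 1 for S100a8. Neutrophil markers differed in direction, with 4 of 8 tested below 0. S100a8 was at -1.23 and S100a9 at -1.36, while Ngp was at 0.32 and Camp at 1.18. Of 10 neutrophil markers 8 were tested and none passed, their summed level was 25.0 to 64.3 CPM in controls and 22.8 to 50.9 CPM in mutants, and no marker was at 0 in all libraries. The part of neutrophil RNA in the Lcn2 values was not tested.

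The last members handle metals. Cp (chromosome 3, 19957054 to 20009750, plus strand, 22 exon blocks) encodes ceruloplasmin, a copper-containing ferroxidase that helps iron leave cells. Controls were close together at 326, 329.6 and 295 CPM, and mutants had 58.6, 237 and 70.5 CPM. No mutant reached the lowest control, although mutant library 2 stood at 74.9% of the control mean and the others at 18.5% and 22.3%. Its log2 fold change in the mutants was -1.38 (± 0.49 SE, adjusted p 0.176 by edgeR), and -2.29 (edgeR adjusted p 4.93e-05) without mutant library 2, the largest fall among the 10 in that fit. Of the 6265 exon bases of Cp, 108 overlap exons of Hps3 on the opposite strand, where reads of the 2 genes cannot be separated.

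Steap4 (chromosome 5, 7960472 to 7982213, plus strand, 5 exon blocks) encodes a metalloreductase of iron and copper. It had 199, 90 and 116 counts in controls and 27, 48 and 56 in mutants, or 9.86, 3.73 and 4.81 CPM and 1.46, 3.63 and 3.91 CPM. Control library 1 was well above the other controls and mutant library 1 was lowest. Mutant library 3 exceeded control library 2, so the groups overlapped. Mutants differed from controls by a log2 fold change of -1.04 (± 0.54 SE), with an edgeR adjusted p of 0.334. It was -1.19 without mutant library 2, where it did not pass either (edgeR adjusted p 0.153). Without control library 1 it was -0.51, without mutant library 1 it was -0.70, and among the libraries with high Xist it was -0.32.

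**Figure D2:**
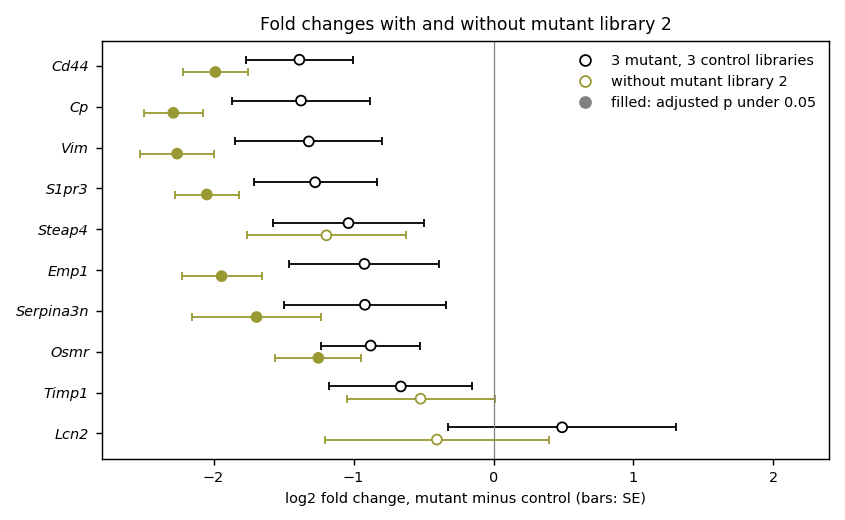
Log2 fold change (x axis, mutant minus control, bars are SE) of the 10 genes from edgeR with all 6 libraries (black) and without mutant library 2 (olive). Filled points have an adjusted p under 0.05: no black point is filled, and 7 olive points are.

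Scaled by exon length as FPKM, so that genes can be compared, the 10 spanned a wide range of levels in the controls. Vim was the highest at 228 ± 45.3 FPKM (SD, n = 3), and its control range did not overlap that of the next gene, Serpina3n at 64.0 ± 26.6 FPKM. Serpina3n and Cp, at 50.6 ± 3.06 FPKM, overlapped. A clear step followed to S1pr3, Cd44, Emp1 and Osmr, whose means were 13.9, 12.8, 11.6 and 9.57 FPKM and whose neighbouring ranges all overlapped. Timp1 at 5.25 FPKM, Lcn2 at 2.30 FPKM and Steap4 at 1.95 FPKM were lowest and also overlapped their neighbours. For comparison, Gfap, the filament gene most used to mark reactive astrocytes, had 316 FPKM. The 3 genes of lowest level are also those that did not pass in the fit without mutant library 2.

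**Figure D3:**
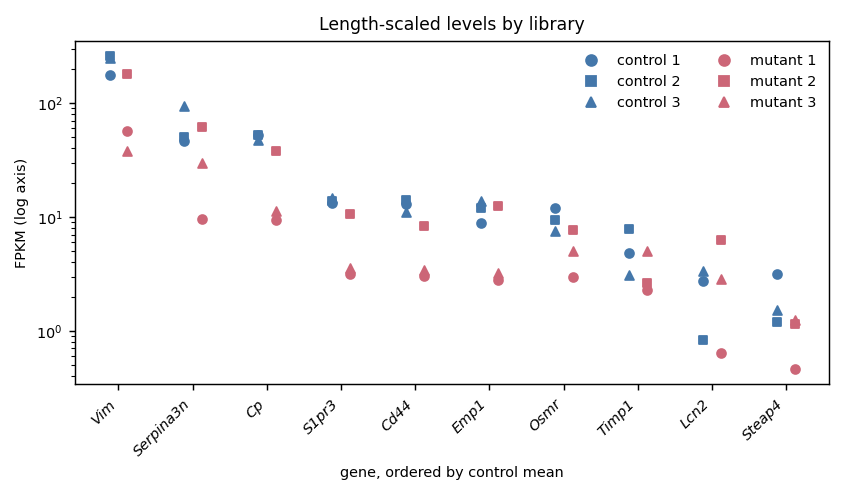
FPKM (log axis) of the 10 genes in each library, ordered by control mean. Vim at 228 FPKM and Steap4 at 1.95 FPKM in controls mark the ends of the range, and mutant libraries 1 and 3 lie below the controls in most genes.

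The promoters of these genes were read from RefSeq (GRCm38.p6, the assembly also called mm10), since many of them were lowest in the same libraries. All 10 genes matched, with 12 start sites, of which 10 coincided with the gene starts in the deposited files. The windows ran from 250 bases before the start site to 50 bases from it on, and were searched on both strands. The STAT motif TTCNNNGAA was present for 2 of the 10 genes (Steap4 and Emp1), against 8.3% of all 32851 promoters. The AP-1 motif TGANTCA was present for 3 of 10 (Cp, Emp1 and Osmr), against 7.81%. A looser NF-kappa-B motif (GGG, any 5 bases, CC) matched 9 of 10, against 50.8%, and TATAAA matched 3 of 10 (Vim, Cp and Steap4), against 13.6%. A match describes letters only and shows no binding. The shares are per promoter, and Cp and Emp1 have 2 promoters each. The 4 promoters with a STAT or AP-1 match are printed here because these factors act in reactive astrocytes. Each covers 180 bases before the start site and 20 from it on, 5′ to 3′ on the gene's strand, with those matches in capitals. The start site is counted as base 1. In Emp1 the STAT match at bases -22 to -14 overlaps the AP-1 match at bases -25 to -19. In Osmr the AP-1 match lies just past the start site, at bases 4 to 10.
Emp1 (chr6:135362751-135362950, plus strand): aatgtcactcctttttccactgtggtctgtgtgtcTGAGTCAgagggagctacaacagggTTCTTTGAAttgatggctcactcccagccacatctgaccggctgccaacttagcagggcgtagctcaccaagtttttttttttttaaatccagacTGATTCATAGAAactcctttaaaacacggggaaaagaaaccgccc
Steap4 (chr5:7960292-7960491, plus strand): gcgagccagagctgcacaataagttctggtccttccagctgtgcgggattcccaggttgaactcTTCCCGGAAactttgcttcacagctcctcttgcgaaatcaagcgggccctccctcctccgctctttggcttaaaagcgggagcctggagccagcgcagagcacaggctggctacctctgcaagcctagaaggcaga
Cp (chr3:19956874-19957073, plus strand): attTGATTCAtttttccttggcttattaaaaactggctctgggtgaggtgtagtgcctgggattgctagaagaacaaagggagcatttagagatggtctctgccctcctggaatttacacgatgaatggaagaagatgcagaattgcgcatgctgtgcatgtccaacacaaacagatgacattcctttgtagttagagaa
Osmr (chr15:6874294-6874493, minus strand): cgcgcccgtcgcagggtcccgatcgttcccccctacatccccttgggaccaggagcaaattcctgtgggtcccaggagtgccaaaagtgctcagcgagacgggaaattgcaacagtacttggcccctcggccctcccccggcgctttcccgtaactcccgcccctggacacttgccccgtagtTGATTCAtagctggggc

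Other genes of the reactive state were described from lists of pan-reactive genes and of genes named A1 and A2, after reactive states first defined in inflammation and in ischaemia. Of the other 4 pan-reactive genes, 1 passed, where 3.29% of all genes did. Hspb1, a small heat shock protein gene, had 34.4, 29.7 and 24.4 CPM in controls and 5.77, 9.67 and 4.47 CPM in mutants, and fell by 2.15 on the log2 scale (± 0.34 SE), with an edgeR adjusted p of 0.0150. For Hspb1 all mutants, mutant library 2 included, were far below every control. With 1 library left out, Hspb1 passed in 2 of 6 fits (without mutant library 2 or 3), and its edgeR adjusted p was 0.0561 to 0.108 without control library 1, 2 or 3 or mutant library 1. Gfap had 1178, 1376 and 1308 CPM in controls and 281, 1199.7 and 223 CPM in mutants, and its difference was -1.18 on the log2 scale (± 0.59 SE, adjusted p 0.313 by edgeR). Mutant library 2 was inside the control range for Gfap, as it was for Vim, Serpina3n, Osmr and Emp1. Aspg and Cxcl10 had log2 fold changes of -1.75 and -0.76 and did not pass.

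Of 11 A1 genes tested 0 passed by edgeR while 3 reached an unadjusted p under 0.05, with a median log2 fold change of -0.83 and 9 of 11 below 0. Srgn, a proteoglycan gene of secretory granules, was at -1.66, the complement inhibitor gene Serping1 at -1.48, Fbln5 at -0.99 and Gbp2 at -0.87. Of 11 A2 genes tested 0 passed and 2 had an unadjusted p under 0.05, with a median of -0.82 and 7 of 11 below 0. Sphk1, the kinase that makes sphingosine 1-phosphate, was at -1.43 (edgeR adjusted p 0.0802), the co-receptor gene Cd14 at -1.40, S100a10 at -0.82 and Cd109 at -0.86. Both lists thus had lower medians than the -0.0017 of all genes. Over all genes, 3.29% passed, 19.2% had an unadjusted p under 0.05 and 50.1% had a log2 fold change below 0. Without mutant library 2, 7 of 11 A1 genes and 5 of 12 A2 genes were called lower, where 13.8% of all genes were.

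The partners of the receptors were measured in the same libraries. Il6st, which encodes gp130, had 678, 709 and 689 CPM in controls and 240.2, 604 and 331 CPM in mutants. Its groups did not overlap, with every control above every mutant as in 11.5% of all genes. The difference was -0.82 on the log2 scale (± 0.35 SE, adjusted p 0.242 by edgeR). Osm, the ligand of the Osmr receptor, was too low to be tested, at 0 to 3 counts per library. Stat3 was at -0.58, Lifr at -0.36 and the feedback inhibitor gene Socs3 at -0.35, and none of these passed. Of 17 genes of gp130 and STAT3 signalling tested 0 passed, and the median was -0.60. An unadjusted p under 0.05 was reached by 3 (Tyk2 at -0.68, Pias3 at -0.97 and Il6st), against 19.2% of all genes.

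In the sphingosine 1-phosphate list 0 of 11 passed, 1 had an unadjusted p under 0.05 (against 19.2% of all genes), and the median was -0.36. S1pr1, a receptor expressed by astrocytes and endothelium, was at 0.17, S1pr2 at -0.74 and S1pr5, which oligodendrocytes express, at -0.56, beside -1.27 for S1pr3. Among 12 hyaluronan and ezrin genes 0 passed, 3 had an unadjusted p under 0.05 (against the same 19.2%) and the median was -0.20. Spp1, whose product osteopontin binds CD44, was at -1.32, and Msn and Rdx, which link CD44 to actin, were at -1.04 and -0.64. Of the 12, 8 were below 0, against 50.1% of all genes. Has2, Hmmr, Nf2 and Has3 lay above 0, at 0.92, 0.27, 0.07 and 0.04.

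The iron and copper list had 0 of 16 genes passing, 2 with an unadjusted p under 0.05 (against 19.2% of all genes) and a median of -0.40. Steap3 was at -1.35 and Slc40a1, the iron exporter ferroportin that works with ceruloplasmin, at -0.84. Slc40a1 had 13.4, 10.2 and 12.1 CPM in controls and 6.75, 6.58 and 6.63 CPM in mutants, so here all 3 mutants were alike and below all controls. Every control was above every mutant in 11.5% of all genes, and Slc40a1 did not pass (edgeR adjusted p 0.155). Heph, which encodes another ferroxidase, was at -0.61 and Steap2 at 0.16.

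Of 14 metalloproteinase and inhibitor genes tested, 1 rose and 1 fell, where 2.95% of all genes were called higher and 0.337% lower. An unadjusted p under 0.05 was reached by 4, against 19.2% of all genes, and the median was -0.54. Adamts1, a matrix protease gene, had 57.4, 70.5 and 54.9 CPM in controls and 19.8, 33.5 and 18.9 CPM in mutants, and fell by 1.34 on the log2 scale (± 0.28 SE), with an edgeR adjusted p of 0.0403. Mmp17, a membrane-anchored metalloproteinase gene, had 7.96 to 11.7 CPM in controls and 116, 38.5 and 20.7 CPM in mutants, and rose by 2.58 on the log2 scale (± 0.57 SE), with an edgeR adjusted p of 0.0485. With 1 library left out, Adamts1 passed in 1 of 6 fits (without mutant library 2) and Mmp17 in 2 of 6 (without mutant library 2 or 3). Their edgeR adjusted p rose to at most 0.208 and 0.221, both above the threshold without any single control or without mutant library 1, and Adamts1 also without mutant library 3. Mmp14 was at -1.21 and did not pass (edgeR adjusted p 0.0988). Timp3 was at -1.04, Timp2 at -0.17 and Timp4 at 0.38, beside -0.66 for Timp1. In the intermediate filament list 0 of 12 passed, 6 had an unadjusted p under 0.05 (against 19.2% of all genes) and the median was -0.64. Nes and Synm, which assemble with vimentin, were at -1.17 and -0.60, whereas the neuronal filament genes Nefm, Nefl and Ina were at 2.28, 1.66 and 1.54. In the family of Emp1, Emp3 was at -1.57, Pmp22 at -0.98 and Emp2 at -0.61.

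Astrocyte markers that are not tied to reactivity had medians nearer to the controls in mutant libraries 1 and 3, a difference that was not tested. Relative to the control mean, the homeostatic list had medians of -0.56, 0.04 and -0.50 (log2) in mutant libraries 1, 2 and 3, beside -1.98, -0.36 and -1.40 for the 10. The homeostatic list had 0 of 20 genes passing, 5 with an unadjusted p under 0.05 (against 19.2% of all genes), and a median log2 fold change of -0.33. Its members differed in direction: Gjb6 was at -1.37 and Agt at -1.33, while the glutamate transporter gene Slc1a2 was at 1.05. Its summed level was 9916 to 10926 CPM in controls and 9464 to 12417 CPM in mutants. Within that sum, Slc1a2 alone held 2005, 1948 and 1813 CPM in controls and 4772, 3214 and 3983 CPM in mutants. The sum therefore does not show that the other markers were steady. With libraries scaled to that sum, the median over the 10 was -1.04 and Cd44 alone passed (log2 fold change -1.48, edgeR adjusted p 0.0371). Calls over all genes were then 551 higher and 149 lower (0.913%), against 482 higher and 55 lower with TMM scaling.

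Markers of other cells that can express these genes moved in the same libraries, and their part in the results was not tested. Fibroblast markers had every control above every mutant in 16 of 16 genes, with a median log2 fold change of -1.53, none passing and 15 with an unadjusted p under 0.05. Over all genes, 11.5% had every control above every mutant and 19.2% had an unadjusted p under 0.05. These markers summed to 3385 to 4394 CPM in controls and 573 to 2685 CPM in mutants. Their medians in mutant libraries 1, 2 and 3 were -2.67, -0.59 and -2.29 log2 units, the same order as for most of the 10. Col1a1 was at -1.48, Dcn at -1.69 and Lum at -1.50. This order was not particular to fibroblast markers. Endothelial (-1.19, -0.28 and -1.06), perivascular macrophage (-2.02, -0.23 and -1.49) and homeostatic astrocyte medians had it too. For the pericyte, microglial and mature oligodendrocyte lists mutant library 3 had the lowest median.

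Pericyte and smooth muscle markers had a median of -0.96, with 0 of 14 passing and sums of 647 to 688 CPM in controls and 181 to 594 CPM in mutants. Endothelial markers had a median of -0.84 and sums of 976 to 1039 CPM and 418 to 1032 CPM, and 1 of 16 passed, Kdr (-1.54, edgeR adjusted p 0.0418), which passed in 1 of 6 fits with 1 library left out (without mutant library 2) and otherwise had an edgeR adjusted p of 0.141 to 0.184. Perivascular macrophage markers had a median of -1.21, with 0 of 9 passing and sums of 183 to 227 CPM and 62.3 to 183 CPM. Microglial markers had a median of -0.39, with 0 of 15 passing and sums of 817 to 1046 CPM and 423 to 1099.6 CPM. None of these lists had a gene at 0 in all libraries, and over all genes 3.29% passed.

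Myelin and neuron markers separated the same mutant libraries. Mature oligodendrocyte markers summed to 30053 to 30767 CPM in controls and to 6347, 38627 and 5508 CPM in mutant libraries 1, 2 and 3, with 0 of 16 passing. Neuron markers summed to 765 to 1294 CPM in controls and to 7044, 2029.9 and 4958 CPM in the mutants, and 5 of 12 rose (10 without mutant library 2, 0 without control library 1 and 2 without any of the others). All 10 striatal projection neuron markers rose (9 without control library 1), with a median log2 fold change of 4.02, and summed to 115 to 173 CPM in controls and 1435 to 2295 CPM in mutants. Over all genes, 2.95% were called higher with all libraries and 13.2% without mutant library 2. Without control library 1, 0.306% were called in either direction. These lists were chosen with earlier results of these data known. Neuron cell bodies are not part of the optic nerve. Striatal markers were high in every mutant library, mutant library 2 included, and their part in the values of the 10 genes was not tested.

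**Figure D4:**
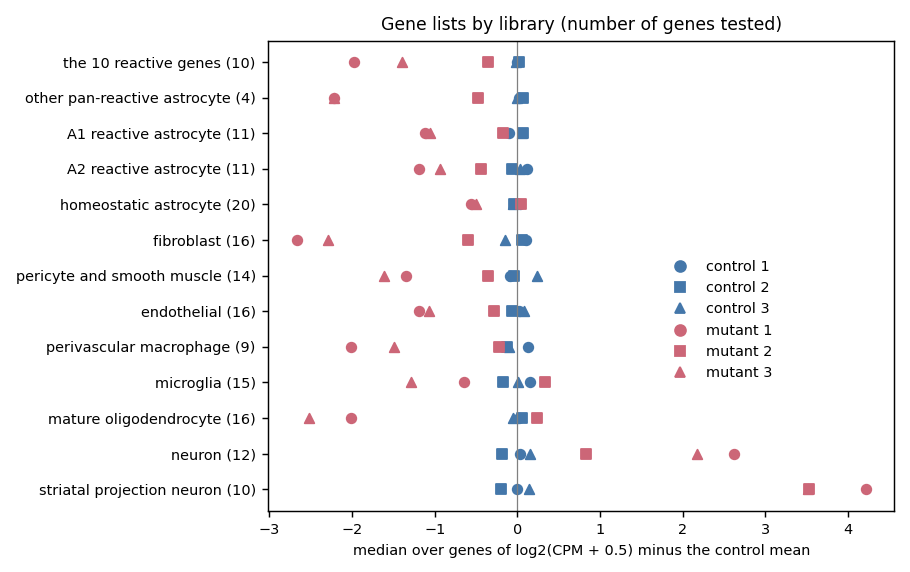
Median over the tested genes of each list of log2(CPM + 0.5) minus the control mean (x axis) for each library. For the 10 reactive genes mutant libraries 1, 2 and 3 lie at -1.98, -0.36 and -1.40, while the striatal list lies far above 0 in every mutant library.

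Control library 1, the Nf1flox/flox animal, was the lowest control for 4 of the 10 genes, the middle one for 4 and the highest for 2. With only Nf1flox/+ controls, the median over the 10 was -1.08. There 0 of 10 passed by edgeR, where 0.306% of all genes did, and 3 of 10 reached an unadjusted p under 0.05, against 12.5% of all genes. Among the libraries with high Xist alone, which leave control library 2 as the only control, the median was -1.11. By edgeR 0 of 10 passed, as did 0 of all genes, and 1 of 10 (Cd44 at -1.53 ± 0.61 SE) reached an unadjusted p under 0.05, against 5.24% of all genes. When Xist level (log2 CPM) entered the model, the median was -1.07, 0 of 10 and 0 of all genes passed, and again only Cd44 reached an unadjusted p under 0.05, against 7.96% of all genes.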

How the data were processed

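RNA of 6 mouse optic nerve libraries (3 control, 3 mutant) was amplified (Ovation RNA-Seq System v2) before Nextera XT library preparation, according to the labels' protocols. The authors deposited unnormalized fragment counts for each gene. Per the file headers, featureCounts 1.4.6-p4 assigned read pairs to exons of the UCSC mm10 gene set and ignored strand. TopHat is named in the submitters' processing notes. The gene length used for FPKM is the summed exon length that the authors' featureCounts tables give beside the deposited counts.

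The counts were tested here with edgeR 4.0.16 (R 4.3.3), quasi-likelihood F tests, TMM scaling, filterByExpr with a minimum count of 10 and no covariate. The threshold was a Benjamini-Hochberg adjusted p under 0.05 over all genes tested. The SE is the size of the log2 fold change divided by the root of the F statistic. CPM and FPKM use TMM-scaled library sizes. Amplified reads are not independent molecules. Libraries of every pair differed by more than sampling noise (lowest chi-square over its degrees of freedom, 48.2). The test was also checked on simulated counts with known fold changes.

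Members and lists were chosen with earlier results of these data known. All 10 members are named with every library's value. From each other list the text names up to 4 genes of smallest p, and from the cell type lists up to 4 defining markers. It also names most of the fixed direct partners and paralogs of the members. Left out elsewhere were Cd63, Lif, Lrp2, Mmp9, S1pr4, Slc22a17 and Steap1. Alternatives were other scalings and filters, DESeq2 1.42.0, limma-voom (limma 3.58.1), Xist as covariate or selection, each library left out, and, for motifs, 1 strand only.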

Additional observations from a re-analysis of the deposited data

How the results depend on the processing

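Of the 10 members, 9 kept the sign of their log2 fold change under all 20 alternatives run, and Lcn2 under 16. With 1 library left out, Lcn2 ranged from -0.40 (without mutant library 2) to 0.99 (without mutant library 1), and was at -0.0034 with limma-voom quality weights, 1.92 with Xist as covariate and 1.97 among libraries with high Xist. Combined with the omission of mutant library 2, it was at -0.39 by DESeq2 and at -0.27 with scaling to the homeostatic astrocyte list (both chosen after seeing the data). Members called lower numbered 0 by edgeR with all libraries. They numbered 1 with scaling to the homeostatic astrocyte list, 1 without a filter on low counts, 3 by DESeq2, 1 by limma-voom and 7 with quality weights. Leaving out 1 library gave 0 to 7, the 7 only without mutant library 2. Without mutant library 2, there were 6 by DESeq2 and 7 with scaling to that astrocyte list. Genes called numbered 537 in all. They numbered 870 without a filter, 1656 by DESeq2, 4009 with quality weights, 0 with Xist as covariate (1299 at an unadjusted p under 0.05) and 0 among libraries with high Xist (894 at an unadjusted p under 0.05). Leaving out 1 library gave 51 to 4551. Without mutant library 2, DESeq2 gave 5136 and astrocyte scaling 4621. The cause of these shifts was not tested. No paired analysis was possible because the labels carry no replicate numbers. Reading motifs on 1 strand left STAT at 2 and AP-1 at 3 members, and gave 6 for NF-kappa-B and 2 for TATAAA. Lcn2, Steap4 and Timp1 had 10 to 199 counts per library, which limits their precision.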
